A study of Homo sapiens with 2 samples.

Results

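JUNB binding near 5 genes of the plasminogen activator system was described: PLAU, PLAUR, PLAT, SERPINE2 and SERPINB2, of 19974 protein-coding genes on chromosomes 1 to 22 and X. The genes were chosen by name, with earlier results of these data known. For each, every listed peak whose summit lay within 50 kb of the RefSeq gene span on GRCh38 was taken, which gave 24 of 32550 untreated peaks and 18 of 25739 etoposide peaks. JUNB pairs with FOS or ATF proteins to form AP-1, a transcription factor that responds to growth signals and stress. Its binding was profiled by CUT&RUN, in which a nuclease tethered to an antibody cuts out the DNA around the bound protein for sequencing. The cells were IMR-90 human lung fibroblasts, in 1 library without treatment and 1 library after etoposide. Etoposide is a topoisomerase II poison that breaks DNA and is used to induce senescence. The dose and duration of etoposide are not given in the sources used here. Both libraries are of a single line and no second library of either condition was analysed here, so no difference below has a replicate check, and the treatment could not be tested.

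Urokinase, encoded by PLAU, and tissue plasminogen activator, encoded by PLAT, are serine proteases that cut plasminogen into plasmin, which dissolves fibrin and degrades extracellular matrix. The urokinase receptor, encoded by PLAUR, holds urokinase at the cell surface, so that plasmin forms next to the cell. SERPINE2 (protease nexin 1) and SERPINB2 (plasminogen activator inhibitor type 2) are serpins, inhibitors that trap their protease in a covalent complex. Several of these factors belong to the secretory programme of senescent cells, and PLAU is a textbook AP-1 target with an upstream enhancer that holds AP-1 sites.

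Each of the 5 genes had JUNB peaks in both libraries. Within 50 kb the activator PLAU had the most untreated peaks, 7 against 4 in the etoposide list, although within 100 kb it had 9 and PLAT and SERPINB2 had 10 each. The untreated peaks closest to PLAU were missing from the etoposide list. PLAUR had 1 peak inside the gene in the untreated list and none there in the etoposide list. The sites at PLAT and upstream of the inhibitor genes SERPINB2 and SERPINE2 were mostly listed in both libraries. SERPINE2 was the 1 gene with more etoposide than untreated peaks, 6 against 5, and this turned to 4 against 5 when peaks with a -log10 q under 5 were left out.

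Among all protein-coding genes, an untreated peak lay within 50 kb of 72.0%, an etoposide peak within 50 kb of 62.6% and a shared peak within 50 kb of 51.1%, so the presence of peaks at all 5 genes is read against those shares. Shared here means an overlap of 1 bp or more between peaks of both lists. The median gene had 2 untreated and 1 etoposide peak in this window. PLAU, with 7 untreated peaks, had more than 93.5% of genes, and PLAT, with 6, more than 90.2%. SERPINE2 with its 6 etoposide peaks had more than 94.8% of genes. PLAUR, with 2 untreated and 1 etoposide peak, stood at the medians. Because long genes have wider windows, the same was expressed per 100 kb of window: PLAU had 6.44 untreated peaks per 100 kb, above 99.6% of genes, against a median of 0.991, and 3.68 etoposide peaks per 100 kb, above 97.3% of genes, against a median of 0.805. PLAT had 4.52 untreated and 3.01 etoposide peaks per 100 kb, above 96.3% and 95.1% of genes. SERPINE2 had 3.04 and 3.65, above 86.8% and 97.2%, so its etoposide value was close to that of PLAU. SERPINB2 had 3.44 and 2.58, above 90.1% and 90.6%, and PLAUR had 1.61 and 0.806.

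**Figure D1:**
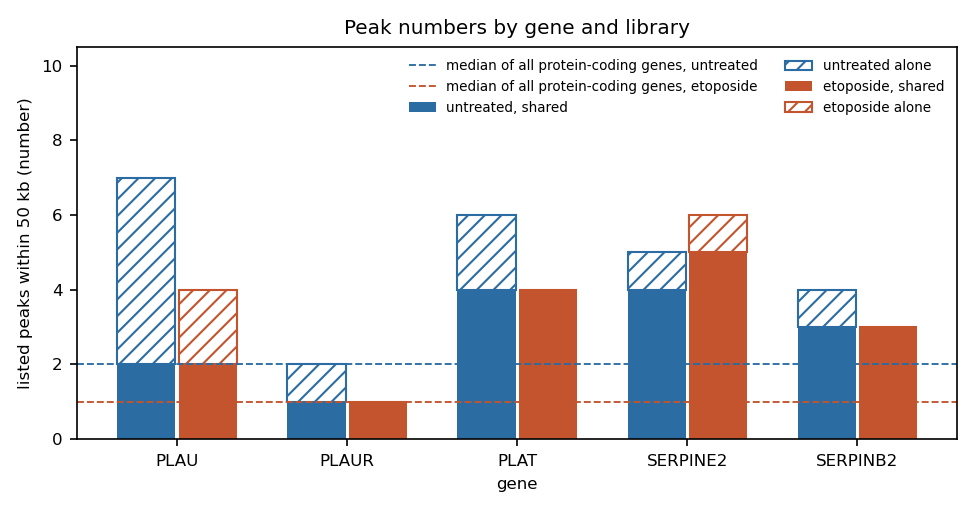
Number of listed JUNB peaks with the summit within 50 kb of each gene, in the untreated and the etoposide library, divided into shared peaks (filled) and peaks of 1 list alone (hatched); dashed lines are the medians over all protein-coding genes. In this window PLAU has the most peaks of the untreated list alone, 5 of 7, and PLAUR sits at the medians.

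More untreated than etoposide peaks were listed for 4 of the 5 genes, as for 45.6% of all genes, and fewer for SERPINE2, as for 12.9% of all genes. At least 1 peak of the untreated list alone lay near each of the 5 genes, against 59.7% of all genes, and a peak of the etoposide list alone lay near 2 of them, PLAU and SERPINE2, against 36.2%. Of the 24 untreated peaks 14 were shared, 58.3% (exact Clopper-Pearson 95% interval 36.6% to 77.9%), and of the 18 etoposide peaks 15 were, 83.3% (58.6% to 96.4%). These intervals, like all others here, cover counting error only. Those of the shares treat each peak as separate, although some peaks adjoin. Among the 15 shared etoposide peaks, 2 at SERPINE2 overlapped the same untreated peak. Over the whole lists 51.0% of untreated and 64.8% of etoposide peaks were shared. Sharing fell from the strongest to the weakest of 10 equal parts of each list ordered by -log10 q. The parts that the peaks near these genes came from had on average 46.7% of untreated and 36.7% of etoposide peaks without a counterpart, where these peaks had 41.7% and 16.7%. The untreated share thus lay near that background, and the etoposide share lay below it. The interval of the etoposide peaks that were shared, 58.6% to 96.4%, still includes the 64.8% of the whole list.

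The number of fragments stacked at each summit was recovered from the fold and p that the authors deposited for the peak. It ranged from 6 to 37 with a median of 20 at the 24 untreated peaks, where the whole untreated list had a median of 15. At the 18 etoposide peaks it ranged from 5 to 23 with a median of 13, equal to the median of the whole etoposide list. By the lowest background and smallest width of each list, the etoposide library had 0.836 times the depth of the untreated library. The stronger 5 of the 10 parts held 12 of the 24 untreated and 9 of the 18 etoposide peaks. By rank the sites were thus of ordinary strength for these lists, and the best ranks were 2657 (untreated) and 2929 (etoposide). In fragments the untreated median of 20 lay close to the upper quartile of its list, 21.

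**Figure D2:**
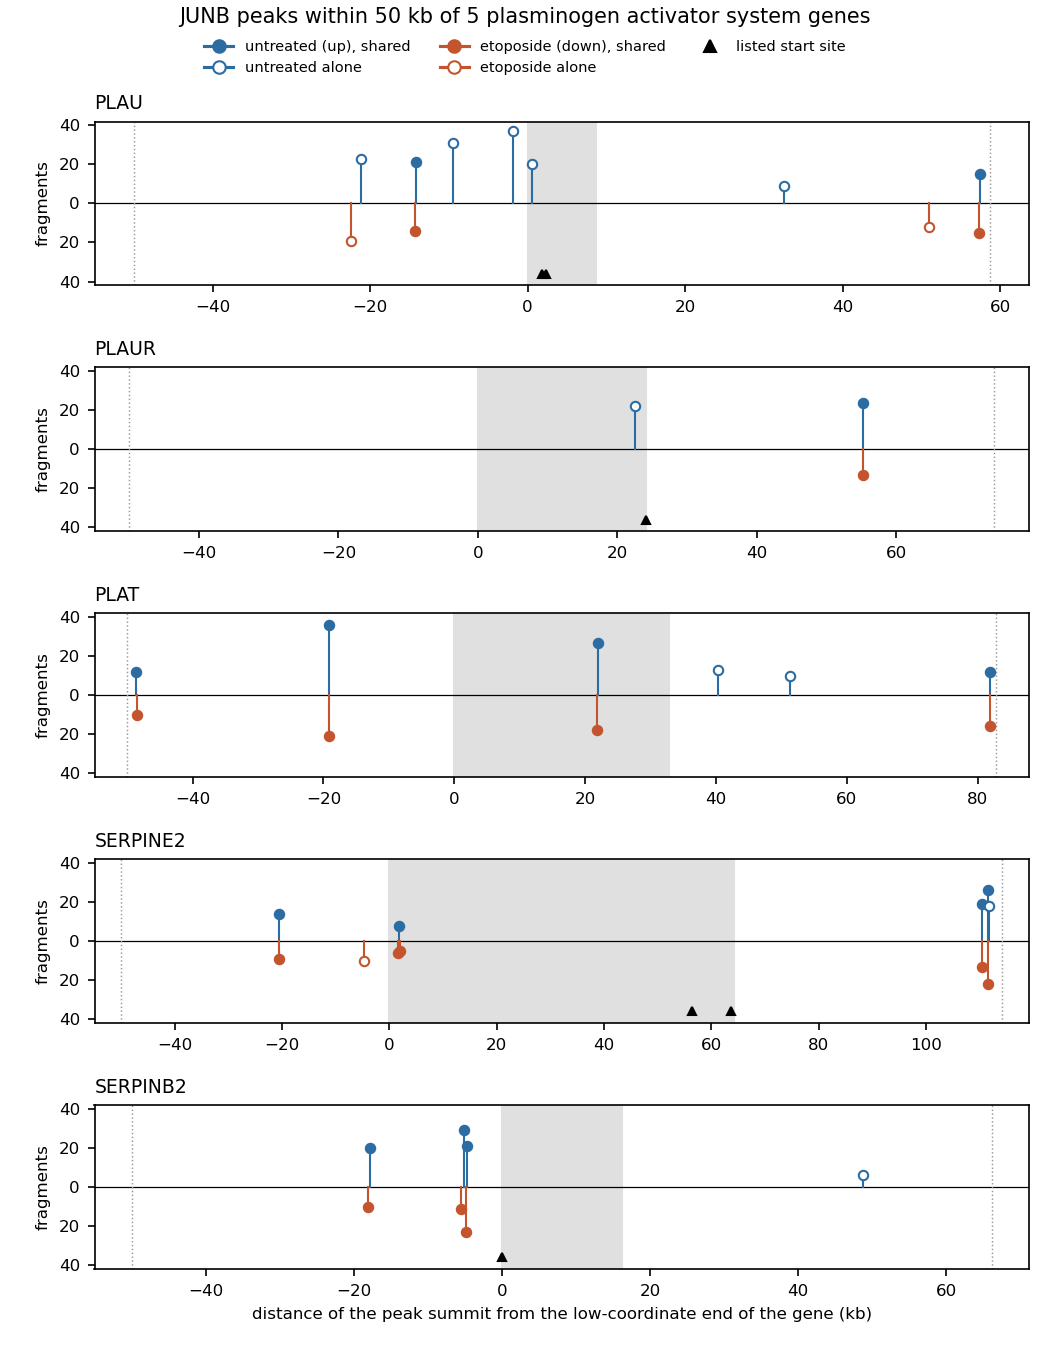
Each panel shows 1 gene (grey) with the peaks within 50 kb (dotted lines); the x axis is the distance of the summit from the low-coordinate end of the gene in kb, and the height is the number of fragments at the summit, untreated upward and etoposide downward. Filled points are shared peaks, open points are peaks of 1 list alone, and triangles mark start sites in the promoter table, which holds none for PLAT; the open untreated points at and just before PLAU reach 37 fragments.

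PLAU (gene ID 5328) spans chr10:73908832-73917494 on the plus strand, 8.66 kb, with 2 listed start sites at 73910610 and 73911132. The tallest untreated peak near any of the 5 genes lay just before it, at chr10:73906868-73907214, with its summit 1.81 kb before the gene span and 3.59 kb and 4.11 kb upstream of the start sites. It had 37 fragments at the summit on a local background of 4.52, ranked 4061 and had no etoposide counterpart. A second untreated peak, at chr10:73909272-73909683 and 20 fragments on the same background, lay inside the gene span, 1.28 kb and 1.81 kb upstream of the start sites. It ranked 28242, in the ninth of the 10 parts, where 72.5% of untreated peaks had no counterpart, and was also missing from the etoposide list. The local background at both was higher than at 97.8% of untreated peaks, whose median was 1.27, and its part in the result was not tested.

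Another untreated peak without a counterpart lay 9.46 kb before PLAU at chr10:73899249-73899520. It had 31 fragments on a local background of 2.18 and ranked 2657, which is in the strongest of the 10 parts of the untreated list, where 4.30% of peaks lacked a counterpart. In the next part, which held the 37-fragment peak, 19.2% did. Within 10 kb of PLAU there were thus 3 untreated peaks and 0 etoposide peaks, and the nearest etoposide summit lay 14.3 kb before the gene. PLAU and PLAUR were the 2 of these 5 genes with an untreated and no etoposide peak within 10 kb, against 15.3% of all genes. All 5 had an untreated peak within 10 kb, against 49.6% of all genes. Of the 9910 genes with such a peak, 3066 had no etoposide peak within 10 kb.

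The shared sites of PLAU lay farther out. At chr10:73894508-73894977, 14.2 kb before the gene, the untreated peak had 21 fragments, and its etoposide counterpart at chr10:73894531-73894720 had 14. At chr10:73966129-73966608, 48.7 kb beyond the gene, both libraries had 15 fragments, and the nearest protein-coding gene was VCL, which encodes the focal adhesion protein vinculin. The remaining peaks of the PLAU window were each of 1 list. An untreated peak at chr10:73887262-73887800 (23 fragments) and an etoposide peak at chr10:73886337-73886617 (19 fragments) were 0.645 kb apart, both nearest to CAMK2G. An untreated peak at chr10:73941233-73941525 had 9 fragments, and an etoposide peak at chr10:73959716-73960190 had 12.

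The promoter sequences of PLAU and its receptor PLAUR are shown because these 2 genes had untreated peaks close to a start site. Each run is the 250 bases before a start site in the RefSeq promoter table of GRCh38.p14, at chr10:73910882-73911131 on the plus strand for the second start site of PLAU and at chr19:43670170-43670419 on the minus strand for PLAUR. Capitals mark a match to the AP-1 motif TGANTCA with C or G at N, searched on both strands.
PLAU: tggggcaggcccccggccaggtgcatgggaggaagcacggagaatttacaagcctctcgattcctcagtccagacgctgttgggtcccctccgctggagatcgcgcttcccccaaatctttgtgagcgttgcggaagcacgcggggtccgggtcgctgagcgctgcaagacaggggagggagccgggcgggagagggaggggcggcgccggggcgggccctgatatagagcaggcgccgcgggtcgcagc
PLAUR: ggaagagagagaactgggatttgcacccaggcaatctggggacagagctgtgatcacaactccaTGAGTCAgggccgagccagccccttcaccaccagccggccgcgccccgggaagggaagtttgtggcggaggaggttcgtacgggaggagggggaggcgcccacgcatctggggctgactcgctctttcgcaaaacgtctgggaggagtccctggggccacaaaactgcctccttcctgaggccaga

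The PLAUR window held 1 match, from 186 to 180 bases before the start site, and neither PLAU window held one. Sequence more than 250 bases upstream, including that under the PLAU peaks, was not searched. Of 34961 promoter windows of this length, 4.17% held the motif. The TEAD motif GGAATG was found in none of the member windows and in 11.9% of all. These are matches of letters in the windows, not measured sites. No peak of either list overlapped the windows of PLAU or PLAUR taken from 250 bases before to 50 after the start site. Over all windows, 8.90% overlapped an untreated and 2.84% an etoposide peak.

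PLAUR (gene ID 5329) spans chr19:43646095-43670169 on the minus strand, 24.1 kb. The untreated peak inside the gene, at chr19:43668468-43669050, had its summit 1.57 kb downstream of the start site, with 22 fragments on a local background of 2.48. It ranked 10642, in the fourth of the 10 parts, where 42.4% of untreated peaks had no counterpart. The nearest etoposide peak was 32.2 kb away. The other site, at chr19:43701078-43701462, 31.2 kb upstream of PLAUR and nearest to IRGC, was shared. It had 24 untreated fragments, and its etoposide counterpart at chr19:43701242-43701442 had 13. Within 50 kb PLAUR thus had the fewest peaks of the 5 genes, although within 100 kb it had 7 untreated peaks, as many as SERPINE2, and 5 etoposide peaks, more than the 4 of PLAT. The 1 site close to its start was listed for the untreated cells alone.

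PLAT (gene ID 5327) spans chr8:42174718-42207565, 32.8 kb. Unlike PLAU, the site inside the gene was listed in both libraries. The untreated peak there, at chr8:42196492-42196739, had 27 fragments. Its etoposide counterpart, at chr8:42196492-42196714, had 18, and the summits were 46 bp apart. The tallest PLAT site, with 36 untreated and 21 etoposide fragments, lay 19.1 kb below the low-coordinate end of the gene and inside AP3M2, which encodes a subunit of a vesicle adaptor complex. Both were in the stronger parts of their lists, with ranks of 2804 and 5945.

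The outer sites of PLAT were shared, with fewer fragments. At chr8:42125983-42126204 the untreated peak had 12 fragments and its counterpart 10. At chr8:42256202-42256789, inside the noncoding transcript IKBKB-DT next to IKBKB, a kinase gene of the NF-kappa-B pathway, the untreated peak had 12 fragments and its counterpart 16. The 2 peaks of PLAT without an etoposide counterpart, 7.42 kb and 18.5 kb above its high-coordinate end, had 13 and 10 fragments. They belonged to the eighth and the tenth part of the untreated list by strength, where 67.5% and 79.1% of peaks lacked a counterpart.

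SERPINE2 (gene ID 5270) spans chr2:223975045-224039286 on the minus strand, 64.2 kb, with listed start sites at 224031478 and 224038640. Its tallest sites formed a group 46.3 to 47.6 kb upstream of the gene span. In the untreated list the group had 3 peaks, of 19, 26 and 18 fragments, at chr2:224085488-224086220, chr2:224086338-224086694 and chr2:224086807-224087008. In the etoposide list it had 2 peaks, of 13 and 22 fragments, at chr2:224085486-224085831 and chr2:224086492-224086703. The third untreated peak had no counterpart, although the nearest etoposide peak ended 0.104 kb before it.

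At the far end of SERPINE2, inside the gene and 54.6 kb downstream of the nearer start site, both libraries had weak peaks. The untreated peak at chr2:223976729-223976930 had 8 fragments, and 2 etoposide peaks overlapped it, at chr2:223976558-223976746 with 6 fragments and at chr2:223976911-223977099 with 5. The larger number of etoposide peaks at this gene came from that division and from an etoposide peak without a counterpart at chr2:223970096-223970311, which had 10 fragments and lay nearest to MRPL44. A shared site inside MRPL44, a mitochondrial ribosomal protein gene, had 14 untreated and 9 etoposide fragments. No peak lay within 2 kb of a listed start site of SERPINE2.

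SERPINB2 (gene ID 5055) spans chr18:63887705-63903888 on the plus strand, 16.2 kb, and had no peak inside it in either list. Its 250 bases before the start site, at chr18:63887455-63887704 on the plus strand, are shown for comparison with PLAUR, since the peaks here lay farther upstream and were shared. They held no match to either motif, and no peak overlapped the window.
SERPINB2: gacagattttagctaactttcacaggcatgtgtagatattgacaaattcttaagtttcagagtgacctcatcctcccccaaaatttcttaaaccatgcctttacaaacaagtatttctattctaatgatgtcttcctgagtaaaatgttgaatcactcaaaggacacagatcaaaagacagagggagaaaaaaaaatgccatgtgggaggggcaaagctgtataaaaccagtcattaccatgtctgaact

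About 5 kb upstream of SERPINB2 there were 2 adjoining peaks in each list, and the taller one differed. In the untreated list the peak at chr18:63882134-63882721 had 29 fragments at a summit 5.13 kb from the start site, and the peak at chr18:63882842-63883057 had 21 fragments at 4.77 kb. In the etoposide list the peak at chr18:63882138-63882407 had 11 fragments at 5.46 kb, and the peak at chr18:63882552-63883035 had 23 fragments at 4.78 kb. The latter was the strongest etoposide peak near any of the 5 genes, with rank 2929, and it overlapped both untreated peaks. The outer shared site, 17.9 kb upstream at chr18:63869593-63870044, had 20 untreated and 10 etoposide fragments. The 1 untreated peak without a counterpart, nearest to SERPINB10, had 6 fragments and ranked 32071, close to the end of the list.

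Fragment numbers were then compared at the 14 shared sites, each taken as the pair of peaks with the largest overlap. Before scaling, the etoposide library had fewer fragments at 11 sites, more at 2 and the same number at 1. Summed over the sites there were 284 untreated and 200 etoposide fragments, a ratio of 0.704 (exact binomial 95% interval 0.585 to 0.847), or 0.843 (0.700 to 1.01) after division by the relative depth. The median depth-scaled ratio was 0.798, and over all 16178 pairs of the lists it was 0.923. The interval of the summed ratio included both 1 and this overall median.

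A depth-scaled ratio of at least 1.5, which 8.78% of all pairs had, was found at 1 site, the PLAT site near IKBKB, at 1.60 (0.708 to 3.69). A ratio of at most the inverse of 1.5, which 16.4% of all pairs had, was found at 3 sites. These were the upstream site of PLAUR at 0.648 (0.303 to 1.32), the outer site of SERPINB2 at 0.598 (0.250 to 1.34) and the SERPINB2 pair of 29 and 11 fragments at 0.454 (0.205 to 0.936). The adjoining SERPINB2 pair of 21 and 23 fragments went the other way, at 1.31 (0.693 to 2.49). The interval of the 0.454 pair was the 1 of 14 that did not include 1, with no adjustment for the number of sites. It rests on pairing by largest overlap: the summits were 335 bp apart, where the median distance was 39.5 bp, and the untreated summit also lay inside the other etoposide peak, which had 23 fragments. It was the 1 pair whose summits were more than 200 bp apart, so a limit of 200 bp leaves it out and no interval then excludes 1. At the other 13 sites the difference was not detectable at this depth.

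**Figure D3:**
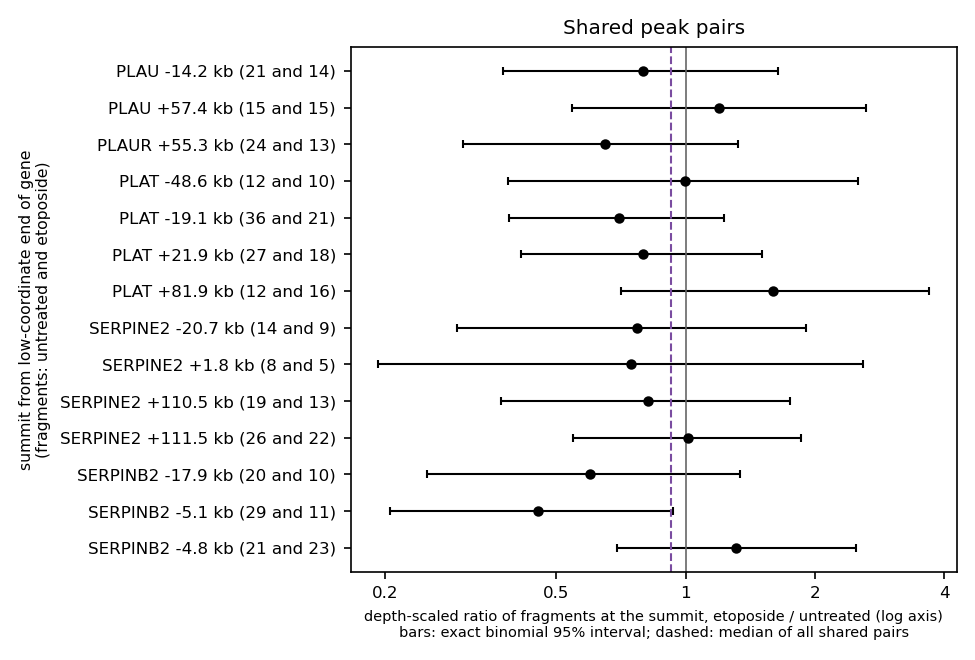
Depth-scaled ratio of fragments at the summit, etoposide to untreated, on a log axis for the 14 shared peak pairs, with exact binomial 95% intervals that cover counting error only; labels give the distance from the low-coordinate end of the gene and both fragment numbers, and the dashed line is the median of all shared pairs, 0.923. The interval of 1 pair, at SERPINB2 with 29 and 11 fragments, does not reach 1.

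For the 13 peaks of 1 list alone, the summit was scaled to the depth of the other library and set beside the smallest pileup that the other list would admit on the scaled background. The largest distances were at 2 PLAU peaks. The 37-fragment peak scaled to 30.9 fragments, where 13 would have been listed, and the 31-fragment peak scaled to 25.9, where 9 would have been. The PLAU peak inside the gene span, closest to its start sites, scaled to 16.7, where 13 would have been listed. The PLAUR peak scaled to 18.4, where 9 would have been listed. The etoposide peak nearest to CAMK2G scaled to 22.7, where 10 would have been listed, although an untreated peak lay beside it. The PLAT peaks of 13 and 10 fragments scaled to 10.9 and 8.36, where 7 would have been listed for each. The SERPINB2 peak of 6 fragments scaled to 5.01, where 5 would have been. Counting error of the scaled values was left out, and the part of depth in any missing counterpart was not tested. The minimum peak width of the caller is not part of this calculation.

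**Figure D4:**
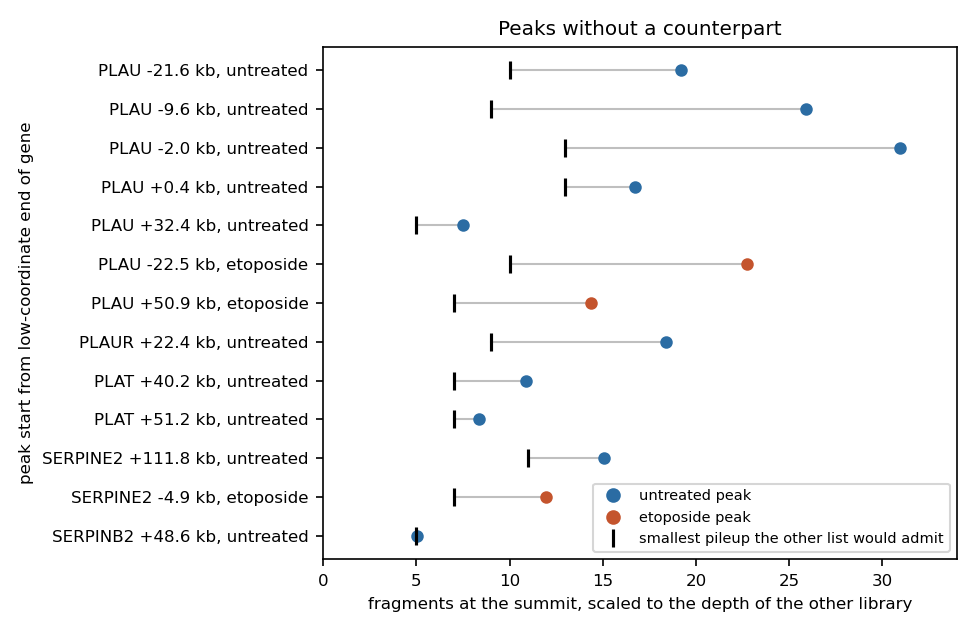
Fragments at the summit of the 13 peaks without a counterpart, scaled to the depth of the other library (points), and the smallest pileup that the other list would admit on the scaled background (bars); labels give the distance of the peak start from the low-coordinate end of the gene and the library. The PLAU peaks of 37 and 31 fragments lie farthest above the bar, the PLAU peak inside the gene lies close to it, and the SERPINB2 peak lies on it.

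Widening the limit from 50 to 100 kb raised the numbers from 24 to 43 untreated and from 18 to 30 etoposide peaks. The peaks just inside 50 kb were at 49.1 kb (PLAT, 12 untreated fragments), 49.0 kb (PLAT, 16 etoposide fragments) and 48.7 kb (PLAU, 15 in each library). Just outside were an untreated peak 50.1 kb from PLAUR with 12 fragments and peaks 55.1 kb (untreated, 24 fragments) and 55.2 kb (etoposide, 13 fragments) from SERPINB2. Of the peaks counted, 16 untreated and 9 etoposide ones had the gene itself as the nearest protein-coding gene.

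A list of 26 other genes of the plasminogen system was taken for comparison: plasminogen and its binding proteins, contact factors, further inhibitors, clearance receptors and growth factors activated by these proteases. Of these, 22 had an untreated and 18 an etoposide peak within 50 kb, with medians of 3 and 1.5 peaks, against 72.0% and 62.6% of all genes and medians of 2 and 1. PDGFC and PDGFD, growth factors that are activated by tissue plasminogen activator and urokinase, had the most peaks over both libraries together, with 12 untreated and 10 etoposide peaks near PDGFC and 5 and 9 near PDGFD. Both are long genes with wide windows. ANXA2, a cell-surface subunit of a plasminogen receptor, came next with 9 and 4, and had more untreated peaks than PDGFD. Untreated peaks without any etoposide peak were found near PLGRKT and TFPI2, with 3 each, and near SERPING1 and SERPINI1, with 1 each. PLG, the plasminogen gene itself, and A2M, CPB2 and SERPINI2 had none in either library. Over all genes, 28.0% had no untreated peak and 37.4% no etoposide peak within 50 kb. The shares of all genes with untreated peaks alone, or with no peak in either library, were not computed. These genes are thus named without a background. There were more untreated than etoposide peaks at 17 of the 26 genes, where 45.6% of all genes had more, fewer at 1 and equal numbers at 8.

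The same numbers of untreated, etoposide and shared untreated peaks as PLAU were found at 15 other genes, of which PACSIN3 and TUBD1 were closest in length. For PLAUR there were 922 such genes (SEPTIN4 and PTTG1IP closest in length), for SERPINB2 186 (PPP1R15B and WASHC1), for PLAT 55 (CD28 and YWHAZ) and for SERPINE2 23 (PRSS12 and NIBAN2). The likeness rests on 3 counts from 2 libraries.

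As a check on the label, fibroblast marker genes had a peak within 10 kb in 9 of 10 untreated and 7 of 10 etoposide cases. Leukocyte markers had one in 2 and 1 of 5 cases, epithelial markers in 3 and 1 of 4, and endothelial markers in 3 and 2 of 3. Over all genes the shares were 49.6% and 38.9%. A peak list does not measure expression, so these counts do not identify the cells.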

How the data were processed

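The data were 2 peak lists in narrowPeak layout, 1 per library, as deposited by the authors. Bowtie2, MACS2 and the builds hg38 and mm10 are named, without versions or roles, per the submitters' processing notes. Contig names and gene positions fitted GRCh38. The deposited values are, by the layout, the fold at the summit over local background, -log10 p and -log10 q, a score equal to 10 times -log10 q without its decimals, and the summit offset. They are the authors' own and were used to describe or rank peaks within their list. No control library was used here.

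Peaks on chromosomes 1 to 22 and X were kept. Fragments at the summit were the whole number k for which the fold is (k + 1)/(b + 1), with pseudocount 1 and local background b, and the Poisson upper tail gives the deposited -log10 p, within 0.001, as in 100% of peaks. This was tested on simulated data, where 100% of 2000 untreated pileups came back exact. Relative depth is the ratio of lowest backgrounds divided by that of smallest widths. Genes were the protein-coding entries of RefSeq GRCh38.p14, and distances run from the summit to the gene span. The promoter table matched 4 of the 5 genes by symbol.

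No genome sequence was used, so the planned motif search ran on promoter windows only. The genes and lists were chosen with earlier results of these data known. All peaks within 50 kb of the 5 genes are given. From the plasminogen system list, the 3 genes with the most peaks, those with peaks in 1 library alone and those with none are named. Genes of equal peak numbers are named by closeness in length. Alternatives were window size, peak strength, nearest gene, the overlap criterion and the scaling. Python 3.11.15, scipy 1.17.1 and pandas 2.3.3 were used.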

Additional observations from a re-analysis of the deposited data

How the results depend on the processing

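All alternatives were planned. Of the 24 untreated peaks (14 shared) and 18 etoposide peaks (15 shared), a 10 kb window kept 9 (4) and 6 (5), and a 100 kb window gave 43 (22) and 30 (23). Among the 10000 strongest peaks of each list there were 8 (4) and 7 (4). With peaks assigned to the nearest gene only, 16 untreated (8 shared) and 9 etoposide (9 shared) remained. Overlap of at least 50% of both peaks left 8 shared in each list. A -log10 q of at least 5, summits within 200 bp and edges within 500 bp kept every number within 1.5 times, though the 200 bp limit left out the SERPINB2 pair of ratio 0.454. There were more untreated than etoposide peaks in all under each window and list tried. The order of the genes turned: within 100 kb PLAT and SERPINB2 had 10 untreated peaks and PLAU 9. Among the strongest peaks PLAU had 2 in each library, SERPINB2 2 untreated peaks and PLAT 2 untreated and 3 etoposide peaks, and SERPINE2 had 1 in each there and 4 in each by nearest gene. The summed depth-scaled ratio of 0.843 was 0.704 without scaling, 0.913 relative to the median pair and 0.984 with the authors' fold values. With the fold values, the ratio at the PLAT site near IKBKB was 1.44 and that at the PLAUR site 0.790, neither past 1.5 times, while the SERPINB2 sites were at 0.632, 0.546 and 1.46. No paired analysis was possible because each condition had 1 library and the labels carry no replicate numbers. Pileups of 5 to 37 fragments limit every ratio to a wide interval.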

Other observations

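SERPINB2 is part of a cluster of 10 SERPINB genes at chr18:63476958-64019779, 543 kb. The cluster held 13 untreated and 11 etoposide peaks, of which 9 in each list were shared. Over the whole lists 51.0% of untreated and 64.8% of etoposide peaks were shared. The peak number usual for a span of this length was not computed. SERPINB7, the next serpin gene below SERPINB2, had 8 untreated and 6 etoposide peaks within 50 kb, the most of the cluster in both libraries. SERPINB5 at the low-coordinate end had 0 and 0, and the median of all protein-coding genes was 2 and 1. The tallest untreated summit of the cluster was inside SERPINB7 at chr18:63775010-63775284, with 37 fragments and rank 2168, and its etoposide counterpart at chr18:63775071-63775259 had 18 fragments and rank 11390. An etoposide peak of 20 fragments inside SERPINB7, at chr18:63764081-63764316 with rank 2959, had no untreated counterpart. In its part of the list, the second of 10 by strength, 10.7% of etoposide peaks lacked one. SERPINB8, at the other end, had a shared peak with 24 and 15 fragments.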
